A study of Sus scrofa with 2 samples.

Results

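Positive selection in the thymus picks CD4 and CD8 double-positive thymocytes whose rearranged T cell receptor (TCR) binds a self peptide presented by the thymic stroma. The selected cell shuts off the recombinase genes RAG1 and RAG2 and raises the TCR-induced genes NR4A1, EGR1, CD69 and CD5. It also raises the factors TOX, TOX2 and GATA3. Only afterwards does it turn on KLF2, S1PR1 and CCR7, which mark the cell that is ready to leave. The cells between these steps are described here in pig thymus, and they are called post-selection cells below, after the rule that chose them. The 449 of them without a TOX2 UMI still held much double-positive RNA, so by that RNA the name fits the 292 with TOX2 better.

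The cells were chosen from counts of unique molecular identifiers (UMIs), each of which stands for 1 captured RNA molecule. A post-selection cell had at least 2 UMIs of TOX2 and CCR9 together and none of PTCRA or DNTT, which are active before selection. It had no UMI of KLF2, S1PR1 or CCR7, at most 1 of SOX13 and RHEX together, and at most 1 of the cell cycle genes TOP2A, UBE2C, PCLAF and TK1 together. Total thymocytes with 500 or more genes and no more than 10% mitochondrial UMIs numbered 8026, and 741 of them met the rule (9.23%, exact binomial 95% interval 8.61% to 9.89%). The 2 libraries of the series hold 19299 kept cells in all.

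Thymi were taken from 2 pigs of mixed breed, both untreated and 22 weeks of age. Droplet sequencing of the 3′ ends of RNA was run on total thymocytes and on invariant natural killer T (iNKT) thymocytes, which express a semi-invariant TCR, and each library joined cells of both pigs. Live cells were sorted for both libraries, and the iNKT cells were first enriched on magnetic beads. The labels give no map from cells to pigs, so each library is 1 sample.

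Every comparison below is therefore between groups of cells in 1 library. There is no test across animals, and all intervals are exact 95% intervals that cover counting error only. Levels are UMIs summed over the cells of a group and scaled to the total of that group on the usual CPM scale. Earlier and later cells served as references, and both comparisons share the same 741 cells. Earlier cells (1210) had a UMI of CD4, CD8B and RAG1 each, the double-positive stage. Later cells (963) had at least 2 UMIs of KLF2, S1PR1 and CCR7 together. The 28 cells that met both definitions were left out of both, and 21 of them (75%) were among the 642 cells with the highest doublet scores. A further 79 cells met the earlier definition and the post-selection rule, and stayed with the post-selection cells.

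Depth differed between the groups. The post-selection cells had a median of 1808 UMIs and 921 genes (1613270 UMIs in all), the earlier cells 1816 UMIs and the later cells 3612 UMIs. By the same cell cycle genes, 272 earlier cells (22.5%) and 61 later cells (6.33%) were cycling, while cycling cells had been removed from the post-selection cells by rule. The 272 cycling cells were rich in RNA: the earlier cells held 4049931 UMIs with them and 1803049 without them. Counts over all genes against the earlier and later cells are therefore given with and without cycling cells. For gene lists and single genes this was done in part, and a value with no such mark includes the cycling cells. Shares of cells are given after every cell had been thinned at random to 1500 UMIs, which left out 260 of the 741 post-selection cells as too shallow. Doublets remain in the data, since the doublet caller's own threshold marked 4 of 8026 cells. Among the highest scores were 7.96% of the post-selection cells, 12.4% of the earlier and 8.52% of the later cells.

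TOX2, a nuclear factor of the TOX family, and CCR9, the receptor for the thymic and gut chemokine CCL25, chose the cells, so their levels are a description. Most of the cells entered through CCR9. In 449 cells (60.6%, 57.0% to 64.1%) there were at least 2 CCR9 UMIs and no TOX2 UMI, 260 cells (35.1%) had both genes, and 32 cells (4.32%) had at least 2 TOX2 UMIs and no CCR9. TOX2 was thus found in 292 cells (39.4%). The threshold lay in the steep part of the distribution, since 340 cells (45.9%) had exactly 2 UMIs and 168 had 3, while the highest cell had 15. TOX2 stood at 8.64 CPM in earlier, 330.4 CPM in post-selection and 118 CPM in later cells, and CCR9 at 155, 1159 and 277 CPM.

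**Figure D1:**
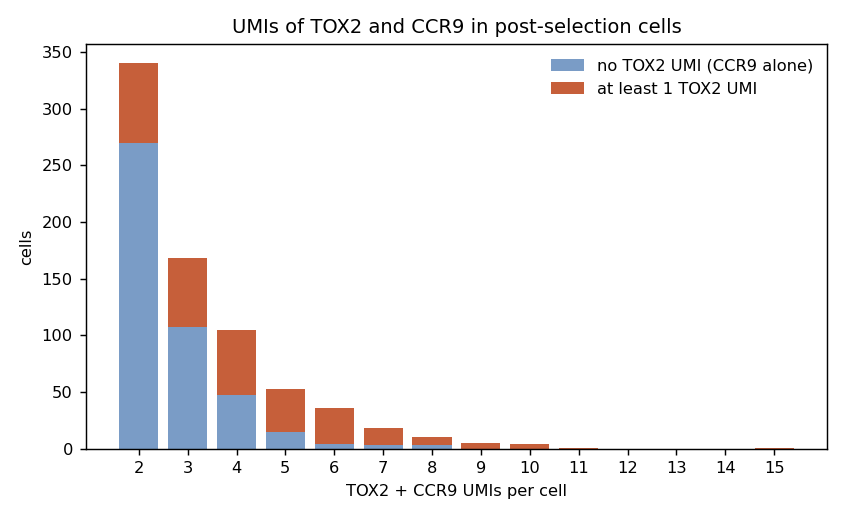
Number of post-selection cells (vertical axis) by their summed UMIs of TOX2 and CCR9 (horizontal axis), split by whether a TOX2 UMI was found. Of the 340 cells at 2 UMIs, 270 held CCR9 alone, and from 9 UMIs upward every cell held TOX2.

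Cells just outside the threshold met every other condition but had 1 UMI of TOX2 and CCR9 (690 cells). They were set beside cells with 0 (1277), with exactly 2 (340) and with 3 or more (401). GATA3, a factor of the CD4 lineage that is also induced by TCR signals, stood at 316, 384, 419 and 440 CPM in this order. KCNA3, a voltage-gated potassium channel of T cells, went from 69.7 and 103 CPM outside to 208 and 236 CPM inside, and ID2, an inhibitor of E proteins, from 109 and 161 CPM to 306 and 297 CPM. RAG2 went the other way, with 212, 194, 128 and 60.6 CPM. NR4A1 was no higher inside the threshold than outside, with 66.4 CPM (55.85 to 78.3) at 0 UMIs, 61.9 CPM at 1 and 66.9 CPM at 2, and it was lower at 3 or more, with 38.3 CPM (26.8 to 53.0). CD28, the co-stimulatory receptor, was similar throughout, at 54.5, 64.5, 80.2 and 63.8 CPM with overlapping intervals between neighbours. Of the markers that go with the label, GATA3, CD28 and NR4A1 therefore were higher than in the double-positive cells (below). Summed, these 3 markers stood at 552 CPM in post-selection, 192 CPM in earlier and 441 CPM in later cells. They were not particular to the post-selection cells, since cells with at least 2 UMIs of SOX13 and RHEX held 1032 CPM. Set against cells with no TOX2 or CCR9 UMI, NR4A1 was lower in the 401 cells with 3 or more UMIs, and CD28 had overlapping intervals. The cells with no such UMI were not of a matched stage or type. Their 17 listed double-positive genes summed to 7173 CPM and their 13 B and plasma cell genes to 495 CPM, against 4072 and 218 CPM in post-selection cells. The listed TCR-induced genes summed to 1072 CPM in them and 1126 CPM in post-selection cells. The listed cytotoxic T or NK cell genes summed to 2825 and 2251 CPM.

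The cells carried T cell genes. CD3D was at 647 CPM, CD3E at 1561 CPM and the adhesion receptor CD2 at 1374 CPM, each above its level in earlier cells (324, 1023 and 384 CPM). CD3G was at 0 in these cells and had 1 UMI in earlier cells, so it could not serve as a marker here. FOXP3, the factor of regulatory T cells, had 0 UMIs, and IL2RA had 2. The later cells held 39 FOXP3 and 68 IL2RA UMIs. Other genes of such cells were present, since TNFRSF18 had 69 UMIs in 45 post-selection cells. The 17 listed agonist and regulatory genes summed to 756 CPM in post-selection, 284 CPM in earlier and 781 CPM in later cells, with 4, 6 and 1 at 0. The myeloid genes LYZ, CSF1R and CD68 were at 0, and CD14 had 5 UMIs. The 15 listed myeloid and antigen-presenting genes summed to 3681 CPM in post-selection, 3074 CPM in earlier and 4750 CPM in later cells, with 8, 6 and 5 of them at 0. CD74, the invariant chain of MHC class II, held nearly all of this sum, with 3637, 3027 and 4450 CPM. The 13 B and plasma cell genes summed to 218, 225 and 317 CPM, with 3, 0 and 0 at 0, and CD79A alone held 178, 184 and 157 CPM of this. TRDC was at 0, but it had only 2 UMIs in the 387 cells with at least 2 UMIs of SOX13 and RHEX, so its absence carries little information. ZBTB16, the factor of iNKT cells, had 1 UMI in all 741 cells.

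Marker lists of cytotoxic and of gamma-delta T cells were above their levels in earlier cells. The 15 cytotoxic T or NK cell genes summed to 2251 CPM in post-selection, 854 CPM in earlier and 1938 CPM in later cells, with 4, 4 and 1 of them at 0. CTSW, a cathepsin found in most cells of each group, held 1713, 763 and 1212 CPM of this, while GNLY, GZMK, KLRB1 and NCR1 had no UMI in post-selection cells. Of 5 measured members 4 were at least 2-fold above earlier cells (3 of 5 without cycling cells), namely CTSW, GZMH, XCL1 and CCL5, and 4 of 8 were at least 2-fold below later cells. The 8 gamma-delta cell genes summed to 812, 272 and 1151 CPM, with 3, 1 and 0 at 0. In post-selection cells ID3 alone held 970 of the 1310 UMIs of this sum. ID3 is also counted with the lineage factors below, and GZMH with the cytotoxic genes above. Of 3 measured members of the gamma-delta list 3 were above earlier cells, with and without cycling cells. These were ID3, GZMH and BLK, a Src family kinase, and BLK stood at 89.3 CPM in post-selection cells, 28.6 CPM in earlier cells and 585 CPM in the SOX13 and RHEX cells. The part of other T cell types in the values below was not tested.

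Against the double-positive cells, the post-selection cells held more RNA of NR4A1, CD69 and CD5, of CD28 and CD2, of ID2, GATA3 and TOX, and of the chemokine receptor CCR4, and less of RAG2, FABP6 and AQP3. Among 5846 genes with at least 100 UMIs over both groups, 280 were at least 2-fold higher in post-selection cells (4.79%) and 415 at least 2-fold lower (7.1%). The 12 lowest ratios all belonged to cell cycle genes, among them KIF20A and E2F8, a difference that the rule itself imposes. Of 21 measured G2 and M phase genes, 21 were lower. Without cycling cells, 161 of 4453 genes were higher (3.62%) and 190 lower (4.27%), and the median log2 ratio over all genes was -0.04, against 0.05 with them.

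Of the TCR-induced genes, NR4A1, CD69, CD5, CD6 and EGR1 were higher in post-selection cells. NR4A1, an orphan nuclear receptor switched on by TCR signals, stood at 50.2 CPM (39.9 to 62.4) in post-selection and 7.65 CPM (5.20 to 10.9) in earlier cells, a ratio of 6.56 (4.29 to 10.3), and of 4.76 (2.86 to 8.32) without cycling cells. The activation marker CD69 was 6.09-fold higher (4.01 to 9.43) and 3.73-fold higher without cycling cells. CD5, a surface protein whose level follows TCR signal strength, stood at 200.2 against 45.9 CPM, a ratio of 4.36 (3.63 to 5.25) and 3.50 without cycling cells. CD6, a relative of CD5, was 2.64-fold higher (2.07 to 3.38). EGR1, an immediate early factor, was 2.45-fold higher (2.11 to 2.84) but 1.80-fold higher without cycling cells. Of 8 measured genes of this list, 5 passed 2-fold upward and 0 downward, and the median log2 ratio was 1.35. Without cycling cells it was 4 of 6 and a median of 1.46. EGR2 had too few UMIs to be counted (44 against 13). These genes were found in few cells: after thinning, 25.8% of post-selection cells (21.9% to 29.9%) had a UMI of NR4A1, NR4A3, EGR1, EGR2 or EGR3, against 13.9% of earlier, 19.3% of later and 14.2% of the SOX13 and RHEX cells, whose median depth was 4669 UMIs before thinning.

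Of the genes that carry the TCR signal, 9 of 23 measured were higher and 14 did not pass 2-fold. CD28 stood at 70.7 CPM (58.3 to 84.9) against 5.68 CPM (3.60 to 8.52), which gave a ratio of 12.4 (7.90 to 20.4) and of 6.71 (4.10 to 11.5) without cycling cells. RASGRP1, which loads Ras with GTP after TCR contact and is needed for positive selection, was 4.22-fold higher (3.31 to 5.42) and 2.58-fold higher without cycling cells. CD2 was 3.58-fold higher (2.40-fold without cycling cells), and PRKCQ, the protein kinase C of T cells, 2.86-fold. The list had 0 lower members and a median log2 ratio of 0.84. Without cycling cells, 3 of 23 were higher and 1 lower, with a median of 0.47, so the count for this list depends on whether the cycling earlier cells are included.

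Among the lineage and maturation factors, ID2 differed by the widest margin, with 301 CPM (274 to 329) against 17.8 CPM (13.9 to 22.4), a ratio of 16.9 (13.2 to 22.0) and of 9.51 (7.22 to 12.7) without cycling cells. IKZF2, an Ikaros family factor, was 3.22-fold higher (2.92 to 3.56). TOX, needed for the CD4 lineage, was 2.71-fold higher (2.34 to 3.14), ID3, like ID2 an inhibitor of E proteins, was 2.64-fold higher (2.41 to 2.89), and RUNX3, a factor of the CD8 lineage, 2.60-fold higher (1.99 to 3.39). GATA3 stood at 431 CPM (400.0 to 465) against 179 CPM (166 to 192), a ratio of 2.42 (2.17 to 2.69) and of 2.09 without cycling cells. ZBTB7B, the factor that commits cells to the CD4 lineage, had only 5 UMIs, too few for a ratio. BCL6, a transcriptional repressor, was 2.21-fold lower (1.67 to 2.98). Over the list, 7 of 23 measured members were higher and 2 lower, with a median log2 ratio of 0.29. Without cycling cells it was 6 higher and 4 lower, with a median of 0.03.

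Receptors for migration and cytokines were also among the higher genes. CCR4, a chemokine receptor that guides newly selected cells to the medulla, stood at 123 CPM (107 to 142) in post-selection and 8.64 CPM (6.02 to 12.02) in earlier cells, a ratio of 14.3 (9.93 to 21.1) and of 7.41 (5.03 to 11.3) without cycling cells. After thinning, 15.2% of post-selection cells had a CCR4 UMI, against 0.938% of earlier and 4.39% of SOX13 and RHEX cells. The integrin chain ITGB7 was 5.97-fold higher (4.45 to 8.09) and STAT5A, which acts below cytokine receptors, 5.76-fold (4.01 to 8.41). IL7R, the receptor for the survival cytokine IL-7, stood at 69.4 CPM against 66.2 CPM, within counting error. Of 11 measured chemokine receptor and adhesion genes 5 were higher (3 without cycling cells), and of 15 cytokine receptor and signalling genes 8 were higher (3 of 14 without cycling cells), with 0 lower in each case.

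Genes of the MHC class I pathway and interferon-stimulated genes had medians above that of all genes. High sums of these lists were not particular to the post-selection cells. The MHC class I list summed to 3663 CPM in post-selection, 2152 CPM in earlier and 4466 CPM in cells with no TOX2 or CCR9 UMI. The interferon list summed to 869, 377 and 1100 CPM in the same order. Of 10 MHC class I genes, 3 were higher, namely PSMB10, PSMB9 and PSME2 of the immunoproteasome and its activator, at 2.46-, 2.28- and 2.41-fold, and the list's median log2 ratio was 0.76. Of 11 interferon-stimulated genes, 8 were higher and BST2 was lower, with a median of 1.27. Without cycling cells, 3 of 9 were higher and 1 lower, with a median of 0.68. ISG15, a ubiquitin-like modifier, was 14.8-fold higher (10.2 to 22.0) and 6.78-fold higher without cycling cells, but its 194 UMIs came from 61 cells and 14.9% of them from 1 cell. IRF7 was 7.83-fold higher (4.94 to 12.8).

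Other genes with the highest ratios were ST6GAL1, a sialyltransferase (16.3-fold, 9.59 to 29.6), TPM4, a tropomyosin (15.9-fold), RNF125, a ubiquitin ligase (10.2-fold), SCML4 (9.57-fold) and KCNA3 (7.97-fold, 6.44 to 9.93). Without cycling cells they were 10.6-, 9.65-, 6.15-, 6.20- and 4.76-fold higher. GZMH, a granzyme, was 11.1-fold higher (7.77 to 16.2), with its 168 UMIs in 65 cells. The ratios of the chemokine genes XCL1 and CCL5 rested on few cells. XCL1 was 23.8-fold higher, but 194 of its 361 UMIs (53.7%) lay in 1 cell and only 37 of 741 cells held any. CCL5 was 9.10-fold higher from 87 UMIs in 3 cells, and it had none when TOX2 and CCR9 had to reach 3 UMIs.

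The double-positive genes were lower, with a gap that depended on the cycling cells. RAG2 stood at 88.6 CPM (74.7 to 104) against 276 CPM (260.0 to 292) in earlier cells, 3.11-fold lower (2.61 to 3.73). FABP6 was 5.50-fold lower (5.08 to 5.96), ELOVL4, a fatty acid elongase, 2.79-fold, and AQP3, a water and glycerol channel, 2.65-fold (2.25 to 3.13). Of 15 measured genes in the list, 6 were lower and 0 higher, with a median log2 ratio of -0.81. Without cycling cells, 12 of 15 were lower, with a median of -1.54. CD1E, which presents lipids, was 1.12-fold higher in post-selection cells with cycling cells in the earlier group and 1.80-fold lower without them.

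Against the later cells, double-positive genes were higher in post-selection cells, and IL7R, GPR183, IL6ST and FOXO1 were lower. Among 5995 genes, 145 were at least 2-fold higher in post-selection cells (2.42%) and 242 at least 2-fold lower (4.04%). Without cycling cells they were 129 (2.31%) and 174 (3.12%) of 5573. The later cells held more RNA of genes that mark B or antigen-presenting cells, with JCHAIN at 64.2 against 8.06 CPM and HLA-DRA at 125 against 18.6 CPM. When later cells needed a CD3D or CD3E UMI, 142 of 5961 genes were higher and 230 lower.

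CD1E stood at 373 CPM (343 to 404) in post-selection and 25.8 CPM (21.2 to 31.2) in later cells, a ratio of 14.4 (11.7 to 17.9). The adhesion protein EPCAM was 10.4-fold higher (7.17 to 15.4), CD1B 9.06-fold (8.30 to 9.89), AQP3 6.95-fold (5.18 to 9.41) and RAG2 5.27-fold (3.94 to 7.10). Of 14 measured double-positive genes, 13 were higher, with a median log2 ratio of 2.01 where all genes had 0.10. COL5A2, a fibrillar collagen chain (16.05-fold), LSAMP, a cell adhesion protein (11.8-fold), ARSG, a sulfatase (10.3-fold), and HHIP, a hedgehog-binding protein (9.77-fold), also had high ratios. The same genes were lower in post-selection than in earlier cells, by 1.42-, 1.27-, 1.85- and 1.77-fold with cycling cells in the earlier group. ARSG stood at 142 CPM in post-selection cells, against 263 CPM in earlier cells and 496 CPM in earlier cells without cycling cells. SATB1, a chromatin organizer, was 3.06-fold higher than in later cells (2.91 to 3.23) and 1.94-fold higher than in earlier cells.

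The TCR-induced genes differed little from the later cells. NR4A1 was 1.27-fold higher (0.961 to 1.66), CD69 stood at 49.6 against 50.2 CPM, and CD5 was 1.16-fold lower (1.02 to 1.32). EGR1 was 1.83-fold higher (1.60 to 2.11). EGR2 was 3.20-fold higher (2.01 to 5.11), but from 44 against 36 UMIs, too few to be counted among the measured genes. TNFRSF9, a co-stimulatory receptor, was 2.85-fold lower (1.73 to 4.95). Of 13 measured members, 0 passed 2-fold upward and 1 downward, and the median log2 ratio was -0.10. CD28 was 1.18-fold higher (0.940 to 1.48) and GATA3 1.26-fold higher (1.15 to 1.38).

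Most measured receptor genes did not pass 2-fold against later cells. Of 14 chemokine receptor and adhesion genes 3 were lower and 1 higher, with a median log2 ratio of 0.23, and of 23 cytokine receptor and signalling genes 5 were lower and 1 higher, with a median of -0.29. IL7R stood at 69.4 CPM (57.2 to 83.5) against 252 CPM (237 to 268), 3.63-fold lower (2.99 to 4.45). GPR183, an oxysterol receptor, was 4.30-fold lower (3.28 to 5.72), and IL6ST, the shared signalling chain of IL-6 family receptors, 2.86-fold (2.11 to 3.97). S1PR4 was 7.72-fold lower (3.20 to 24.3) and FOXO1, the factor that drives KLF2 and IL7R, 4.50-fold lower (2.99 to 7.06). After thinning, 7.90% of post-selection cells (5.65% to 10.7%) had an IL7R UMI, against 7.10% of earlier, 27.6% of later and 5.43% of SOX13 and RHEX cells. IFNGR2 was 7.05-fold lower (3.32 to 17.9).

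Further low genes were S100A4, a calcium-binding protein of memory-like cells, with 5 UMIs against 467 (35.7-fold lower, 15.2 to 110.5), CCND2, a cyclin of G1 phase, with 13 against 414 (12.2-fold lower), RASA3 with 7 against 278, and MYL4 with 1 against 108. Of the interferon-stimulated genes 3 of 14 were lower, with IFI6 7.29-fold (5.87 to 9.17) and IFITM3 6.98-fold lower, and ISG15 was 1.95-fold lower. TAP1, NLRC5 and ERAP1 of the MHC class I pathway were 2.48-, 2.43- and 2.12-fold lower. For NF-kB genes, 3 of 14 were lower and TNFAIP3, an inhibitor of the pathway, was 3.101-fold higher (2.51 to 3.83). BMF, a pro-death member of the BCL2 family, was 3.38-fold higher (2.42 to 4.75) and the only one of 12 measured genes past 2-fold in the list of BCL2 family and death genes. That list leaves out BCL2L1, an anti-death member counted with the double-positive genes, which was 4.03-fold higher (3.12 to 5.22). Against earlier cells, 0 of 11 measured genes of the list passed 2-fold in either direction. Glycolysis genes differed little, with 1 of 11 lower than in earlier and 1 of 12 lower than in later cells.

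**Figure D2:**
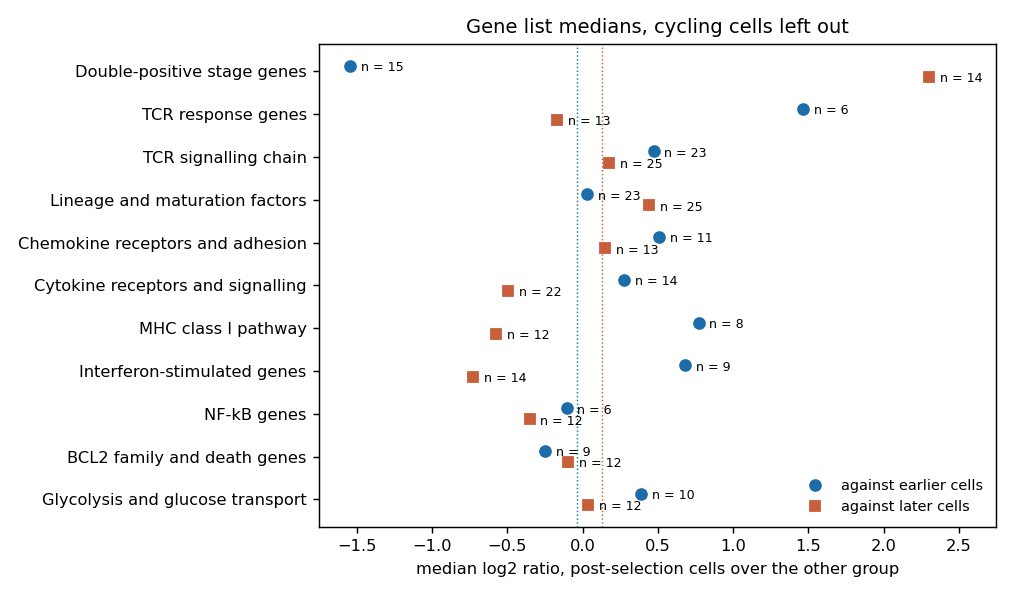
Median log2 ratio (horizontal axis) of the measured genes of each list, post-selection over earlier cells (circles) and over later cells (squares), cycling cells left out. Dotted lines mark the median over all genes of the same comparison and n is the number of measured genes. The double-positive list lies at -1.54 against earlier and to the far right against later cells, and the TCR response list at 1.46 against earlier cells.

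Few genes stood above or below both reference groups. Of 5472 genes measured in both comparisons, 2 were at least 2-fold higher than in both (0.0365%), and 81 were lower than in both (1.48%). The higher ones were PTGER4, a receptor for prostaglandin E2, and TNIP2, an inhibitor of NF-kB signalling. PTGER4 stood 3.64-fold above earlier (3.04 to 4.36) and 2.98-fold above later cells (2.52 to 3.53), with its 303 UMIs spread over 225 cells. TNIP2 was 2.22-fold (1.60 to 3.06) and 2.02-fold higher (1.48 to 2.76). Against earlier cells without cycling cells, PTGER4 was 1.86-fold and TNIP2 1.75-fold higher, so both left the count. The only gene in it then was INCA1 (1 of 4386, 0.0228%), whose 115 UMIs lay in 6 cells, 51 of them in 1 cell. The genes lower than in both were 3 without cycling cells (0.0684%): SLA-DQB1, a pig MHC class II gene, TSC22D3, a glucocorticoid-induced gene, and NARS2. SLA-DQB1 was 8.67-fold below later cells (5.90 to 13.3) and 2.78-fold below earlier cells without cycling cells.

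The post-selection cells were not of 1 kind. By their double-positive RNA alone, the label described the cells with TOX2 more closely than those without. The 17 listed double-positive genes summed to 6216 CPM in the cells without a TOX2 UMI and 1710 CPM in those with one, against 7466 CPM in earlier cells (10225 CPM without cycling cells) and 854 CPM in later cells. The 292 cells with a TOX2 UMI differed from the 449 without in the double-positive genes, a comparison chosen after the data had been seen. Of 2422 genes, 12 were at least 2-fold higher with TOX2 (0.495%) and 80 lower (3.3%). In the double-positive list 13 of 13 measured genes were lower, with a median log2 ratio of -2.25 where all genes had -0.05. RAG2 stood at 18.2 CPM (9.97 to 30.6) with TOX2 and 152 CPM (127 to 181) without, 8.36-fold lower, which is close to its 16.8 CPM in later cells. EPCAM was 10.9-fold lower (5.89 to 22.3), AQP3 11.0-fold (6.22 to 21.0) and CD1E 3.75-fold. ID2 was 2.92-fold higher with TOX2, at 459 CPM (412 to 509) against 157 CPM (132 to 186). XCL1 was 5.21-fold higher, for which the single cell above counts. ALDH2 was 2.87-fold higher (1.92 to 4.36) and NIN, a centrosome protein, 2.38-fold (1.64 to 3.51).

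NR4A1, CD5, CD28 and GATA3 differed less, with ratios of 1.31 (0.827 to 2.09), 1.29 (1.03 to 1.61), 1.31 (0.894 to 1.94) and 1.11 (0.953 to 1.29). The cells with TOX2 were deeper, with a median of 2444 UMIs against 1456, and a TOX2 UMI is more easily found in a deep cell. At a common depth of 1500 UMIs, 5.28% of cells with TOX2 (2.92% to 8.71%) and 20.8% without (15.6% to 26.9%) still had a UMI of RAG1 or RAG2. The share was 79.1% in earlier cells, all of which had been chosen for a RAG1 UMI before thinning. It was 4.08% in later and 3.101% in SOX13 and RHEX cells, so that with TOX2 it lay near that of later cells. CD1E or CD1B was found in 50.9% of cells with TOX2 and 64.4% without, against 21.4% of later cells. The TCR-induced genes did not set the cells with TOX2 apart. A UMI of NR4A1, NR4A3, EGR1, EGR2 or EGR3 was found in 22.3% with TOX2 (17.4% to 27.8%) and 30.1% without (24.1% to 36.7%). Of 4 measured genes of that list, 0 passed 2-fold, with a median log2 ratio of -0.06 where all genes had -0.05.

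When the rule required a UMI of TOX2 and of CCR9, 48 of 5443 genes were at least 2-fold higher than in later cells. With the full rule 145 of 5995 had been. This alternative was added after the data had been seen. The 32 cells that entered through TOX2 alone were set against the 449 through CCR9 alone: of 1432 genes, 17 were higher (1.19%) and 164 lower (11.5%). ID2 was 5.61-fold higher (4.23 to 7.41) and VIM, an intermediate filament of mature T cells, 4.05-fold (2.63 to 6.13), while ARPP21 was 13.6-fold lower (5.80 to 42.1) and RAG2 had 1 UMI against 129.

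**Figure D3:**
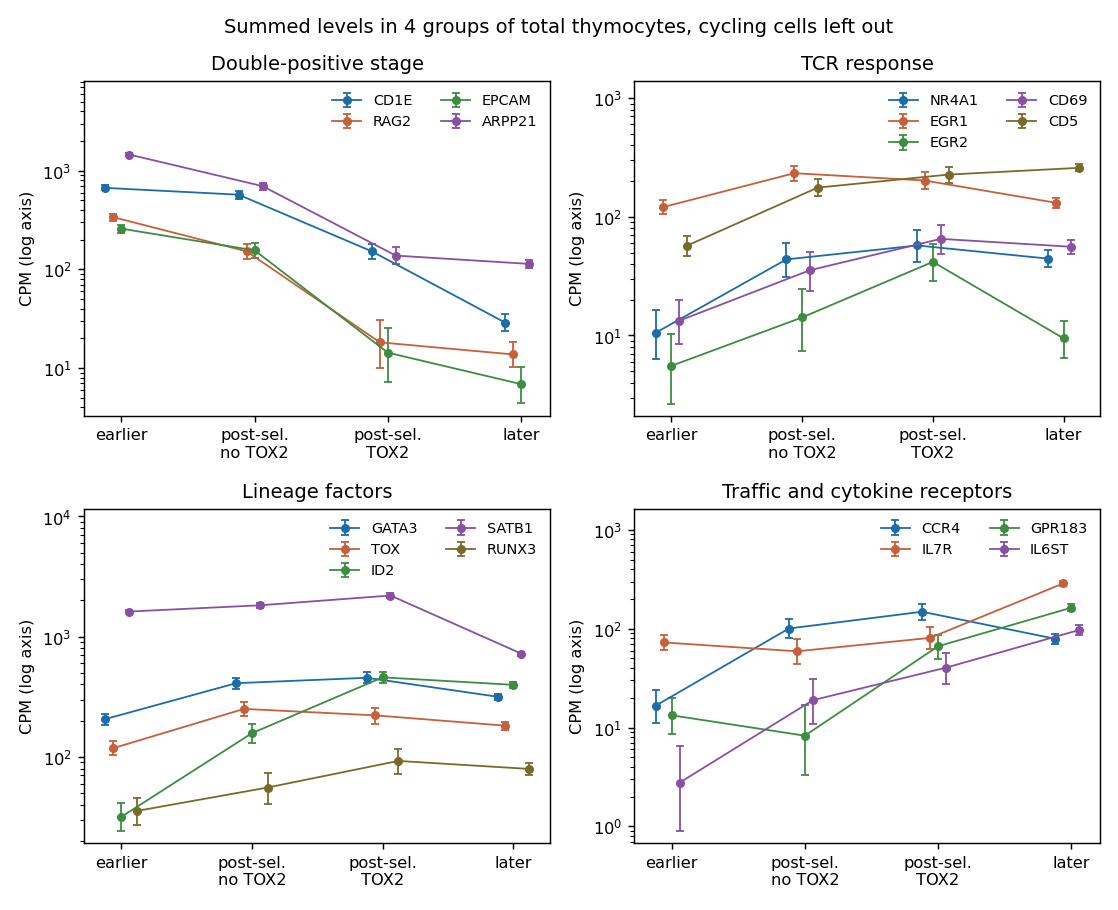
CPM (log axis) of 18 genes in earlier cells, post-selection cells without and with a TOX2 UMI, and later cells, cycling cells left out; bars are exact 95% Poisson intervals for counting error, and lines only join the points of a gene. RAG2, EPCAM and ARPP21 drop between the post-selection cells without and with TOX2, ID2 goes from 157 to 459 CPM, and IL7R stays below its level in later cells in both.

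Co-receptor RNA was intermediate. After thinning, 13.3% of the 481 post-selection cells deep enough (10.4% to 16.7%) had UMIs of CD4 and of CD8A or CD8B, 31.4% (27.3% to 35.7%) of CD8 genes only, 6.86% (4.77% to 9.50%) of CD4 only and 48.4% (43.9% to 53.0%) of neither. Without thinning these shares were 22.5%, 42.0%, 6.88% and 28.6%. The share with both was 53.9% in earlier cells, which had been chosen for both, and 1.99% in later cells. The SOX13 and RHEX cells, which mostly lack co-receptors, had 1.03% with both, 9.56% with CD8 only and 3.101% with CD4 only. Within the post-selection cells, both were found in 21.8% without and 6.42% with TOX2, and CD4 only in 2.78% (6 cells) and 10.2%. The gap in CD4 only depended on the depth. It was found in 4.03% without and 6.55% with TOX2 at 1000 UMIs, and in 8.76% and 14.6% at 2000 UMIs, with overlapping intervals at both depths. A missing UMI does not show that a co-receptor is absent, since CD4 has few UMIs per cell.

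**Figure D4:**
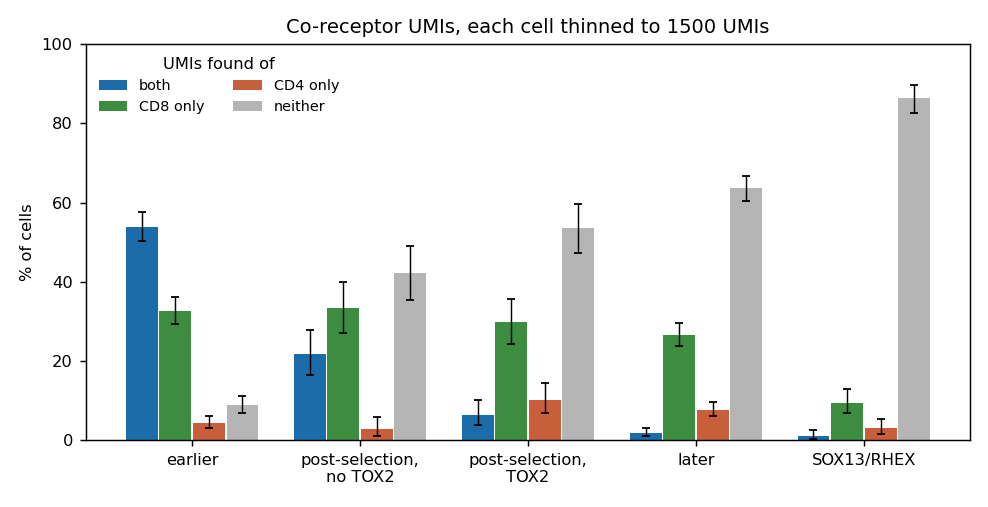
Share of cells (vertical axis, %) with UMIs of CD4 and a CD8 gene, of CD8 genes only, of CD4 only or of neither, in 5 groups of cells thinned to 1500 UMIs; bars have exact 95% binomial intervals. The share with both is 53.9% in earlier cells, 21.8% and 6.42% in post-selection cells without and with TOX2, and 1.99% in later cells.

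The 51 post-selection cells with CD4 only were compared with the 311 with CD8 only before thinning, at median depths of 2444 and 1523 UMIs. A TOX2 UMI was held by 35 of the 51 and by 105 of the 311. This comparison therefore overlaps with that by TOX2, and the part of TOX2 in the ratios below was not tested. Of 987 genes, 3 were at least 2-fold higher in the CD4-only cells (0.304%) and 66 lower (6.69%). SRGN, a granule proteoglycan, was 3.099-fold higher (2.20 to 4.35) and HDAC2 2.18-fold (1.43 to 3.27). Lower genes included the double-positive genes CD1E (8.89-fold, 4.26 to 22.3), MYOM1 (7.61-fold) and ARPP21 (6.43-fold, 3.34 to 14.2), and CXCR4, the receptor that holds immature cells in the cortex (5.09-fold, 2.72 to 10.8). TOX was 2.32-fold lower (1.37 to 4.24). Of 16 measured lineage and maturation factors, 4 were lower and 0 higher, with a median log2 ratio of -0.36 where all genes had -0.02. GATA3 was 1.12-fold higher (0.821 to 1.51). RUNX3 gave a ratio of 0.495 (0.191 to 1.08) from 7 UMIs in the CD4-only and 65 in the CD8-only cells, and ZBTB7B had 1 UMI in each. CD40LG, a helper T cell ligand, had 12 UMIs against 8 (6.90-fold, 2.59 to 19.4), and CCR4 was 2.39-fold higher (1.43 to 3.91). Both CD40LG and CCR4 had too few UMIs to be counted among the measured genes. Of 5 measured chemokine receptor and adhesion genes, 0 were higher and 1 was lower in the CD4-only cells.

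The rule was also applied to the iNKT library. There 42 of 11273 kept cells met it (0.373%, 0.269% to 0.503%), and 18 of the 42 (42.9%) had a ZBTB16 UMI. The libraries shared 41 cell barcodes, of which 1 belonged to a post-selection cell.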

How the data were processed

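The deposited matrices give raw UMI counts, whole numbers for each gene in each barcode, and the file headers name no scaling. The authors used Cell Ranger 3.1 and Seurat 3.1, per the submitters' processing notes. The matrix header gives software version 3.1.0. Genome build and gene models: not given in the sources used here. Of 21301 genes, 14840 had a usable symbol in the deposited gene list, 680 took one from a table of gene names and 5781 had none.

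The total thymocyte library held 9112 barcodes and 29723207 UMIs. Of these barcodes 8026 were kept (at least 500 genes, at most 10% of UMIs from 13 mitochondrial genes). Counts were summed over the cells of each group, divided by the group's total and given as CPM with exact Poisson intervals. Ratios have exact conditional binomial intervals and shares have Clopper-Pearson intervals, all at 95%. Genes needed at least 100 UMIs over both groups and counted as higher or lower at 2-fold. The 16 genes of the rules were left out of counts of genes. A prior count of 0.5 entered list medians. With 1 library, no test across samples was possible.

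The members, the 20 gene lists and the named genes were chosen with earlier results of these data known. Named genes were the highest and lowest ratios of each comparison, all TCR response genes and lineage factors, up to 4 of each other list, and the markers of the label. Genes named in the comparison by TOX2, and those named for their absence, were chosen after their values were seen. Doublets were scored with Scrublet (scanpy 1.11.5). TMM factors came from edgeR 4.0.16 and were used in an alternative only. The ratio and its interval were tested on simulated data. Other alternatives changed cell filters, thresholds of the rule, weights, thinning, the filter on low counts and the reference cells. Some members of the gene lists are not reported here by name.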

Additional observations from a re-analysis of the deposited data

How the results depend on the processing

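No paired analysis was possible because each kind of cell comes from 1 library that joins both pigs. The cause of each shift was not tested, except that the number of genes measured changed with the 5% mitochondrial filter, thinning and other count minimums. A fall in a count is therefore not always a fall in the share of genes, and totals are given. Counts are given in the order of at least 2-fold higher than earlier, lower than earlier, higher than later and lower than later cells. Totals are of genes measured against earlier and later cells. The counts 280, 415, 145 and 242 (of 5846 and 5995) became 167, 256, 70 and 87 (of 2804 and 3188) with at most 5% mitochondrial UMIs. They became 116, 189, 62 and 80 (of 2732 and 3031) after thinning to 1500 UMIs. With a minimum of 20 UMIs they became 750, 743, 367 and 728 (of 8962 and 9191). Without cycling cells, 161 genes were higher and 190 lower than in earlier cells, of 4453. Later cells with at least 3 UMIs and no SOX13 and RHEX cells gave 158 lower genes (of 4928). Equal weight per cell gave 240 genes higher than in later cells (of 5995). A UMI of both TOX2 and CCR9, added after seeing the data, gave 48 (of 5443). The 2 genes higher than both groups became 9 (5% mitochondrial), 6 (at least 3 UMIs of TOX2 and CCR9), 5 (at least 1), 8 (without the highest doublet scores), 1 (without cycling cells), 5 (stricter later cells), 6 (earlier cells without TOX2 and CCR9), 1 (TMM), 56 (20 UMIs) and 10 (both genes). The 81 lower than both became 17 (5% mitochondrial), 47 (doublet scores), 3 (without cycling cells), 35 (stricter later cells), 51 (equal weight), 6 (thinning) and 277 (20 UMIs). Counts against both groups were of 5472 genes in the main setting, 2587 at 5% mitochondrial, 2540 after thinning and 8701 at 20 UMIs. In the other settings they were of 4386 to 6012 genes. TMM factors shifted log2 ratios by -0.13 against earlier and -0.11 against later cells. Higher and lower genes of CD4-only against CD8-only cells (3 and 66 of 987) became 1 and 8 (of 347) after thinning and 125 and 677 (of 4678) at 20 UMIs, with 8 higher at equal weight. For the TOX2 route (17 and 164 of 1432) they became 5 and 33 (of 446) and 294 and 1086 (of 5471), with 27 higher at equal weight. With against without TOX2 (12 and 80 of 2422) they became 2 and 22 (of 980) and 167 and 392 (of 6836), with 32 higher at equal weight and 20 with TMM. The 741 cells became 401 at 3 UMIs, 1431 at 1 and 266 at 5% mitochondrial. Co-receptor shares moved without thinning (CD8 only 42.0%, both 22.5%, neither 28.6%), at 1000 UMIs (CD8 only 37.2%) and at 2000 UMIs (CD4 only 12.1%). The CCL5 ratio to earlier cells turned to 0 at 3 UMIs and with both genes required, and PBK, 39.0-fold lower than in later cells, gave 2.16 without cycling cells, from 1 UMI in post-selection cells. XCL1 and ST6GAL1 gave no ratio under 3 settings in which earlier cells had 0 UMIs. Of the other single-gene values, 376 moved beyond their interval and 1713 did not, and of list medians 39 moved and 216 did not.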
